A study of Drosophila melanogaster with 4 samples.

Results

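Broad domains of histone H3 trimethylated at lysine 4 (H3K4me3) were described in whole larvae of Drosophila melanogaster at the third larval instar. They were chosen by width, as the regions wider than 5 kb in the combined list of enriched regions, which the authors made from both ChIP libraries. The rule takes 742 of the 4451 regions of that list (16.7%). Because width in this list chose the members, their widths and their scores are given as a description and were not tested, and neither were the widths and scores in the replicate lists that the combined list draws on.

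H3K4me3 was mapped by chromatin immunoprecipitation with sequencing (ChIP-seq) in the wild-type strain Oregon-R, whose label also carries the name Oregon-R-modENCODE. Flies were kept in population cages and larvae were taken from bottles; the tissues were homogenised and fixed with formaldehyde before the chromatin was sonicated. The mark was precipitated with lot 2 of ab8580, an affinity-purified rabbit polyclonal antibody raised against a trimethylated peptide of human H3. The labels give 2 ChIP libraries and 2 input libraries, and all 4 share the strain, the stage and the genotype; no treatment is named. Lists of regions were analysed for the 2 ChIP libraries, called replicates 1 and 2, and for the combined list. Nothing from the input libraries is analysed here. The lists hold positions on FlyBase release 5, counted from 1, with a score of unknown scale for each region, and no gene names and no read counts. The depth behind a region is therefore unknown. Whether the replicates are separate collections of larvae is not stated, so their spread may be technical only.

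H3K4me3 is known as a mark of the nucleosomes around the starts of active genes, laid down in Drosophila mainly by Set1, the catalytic subunit of a COMPASS-type methyltransferase complex. At most genes it forms a short stretch just downstream of the start. Domains of many nucleosomes are also known, and in mammals the broadest of them have been linked to genes of cell identity. In whole larvae, a mark carried by some cells and a weaker mark carried by all cells cannot be told apart, and neither can 1 long domain and several domains of different cells that lie side by side. No gene is assigned to a domain here, since the annotation at hand is on release 6 and positions were not converted.

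Because the rule picks the widest regions, the domains had to make up a larger part of the marked sequence than of the list. They covered 5.66 Mb of the 16.2 Mb in the combined list, or 35.0% of its bases. Replicate 1 alone had 653 regions over 5 kb (15.1% of its regions) and replicate 2 had 672 (15.8%). These regions held 31.6% ± 1.20 (SD, n = 2) of the bases of a replicate list. The number per replicate was 662.5 ± 13.4 (SD, n = 2), below the number in the combined list.

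Most domains were only a little wider than the limit. The median width was 6699 bp, with 50% of domains between 5686.5 and 8508.5 bp. There were 248 domains (33.4%) of 5 to 6 kb, 172 of 6 to 7 kb and 105 of 7 to 8 kb. The class of 5 to 10 kb held 630 domains with a median of 6345 bp. The class over 10 kb held 112 domains (2.52% of all regions) with a median of 12058 bp, of which 21 exceeded 15 kb and 5 exceeded 20 kb. The limit cuts through a continuous range: 36 regions were 4901 to 5000 bp wide and 43 were 5001 to 5100 bp wide. The narrowest members were 2 domains of 3R at 27634460 (5003 bp) and 8854650 (5009 bp), 1 of chromosome 4 at 1232414 (5007 bp), 1 of 3L at 3068854 (5007 bp) and another of 3R at 10132564 (5011 bp). Just under the limit lay regions of 3L at 1566540 (4997 bp), X at 21855206 (4985 bp), 3L at 20510646 (4985 bp), 3L at 9500600 (4983 bp) and 3R at 2229696 (4981 bp). The scores of these 5 regions, between 2.16 and 3.04, overlapped those of the 5 narrowest members, between 1.69 and 2.46.

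**Figure D1:**
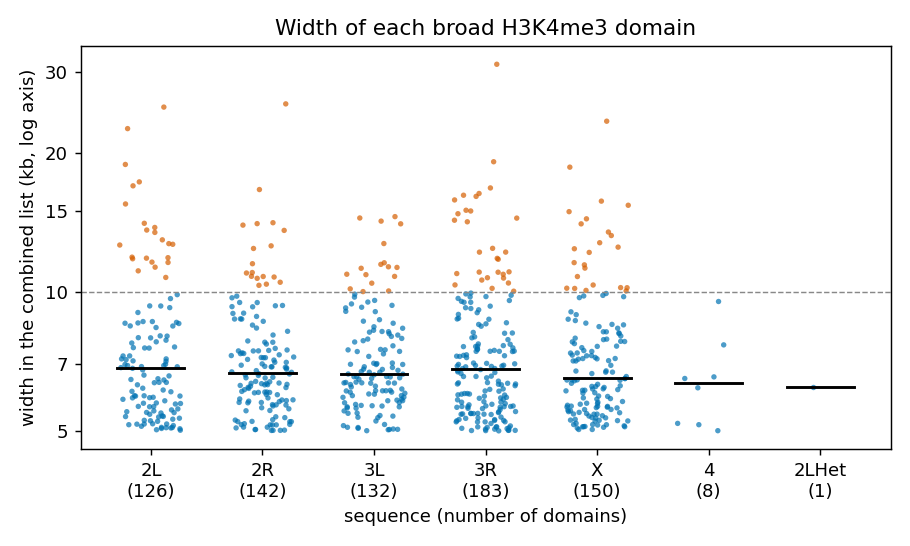
Width of each of the 742 domains in the combined list (vertical axis, kb, log scale) by sequence, with the number of domains in brackets; black bars are medians, orange points are over 10 kb and the dashed line is at 10 kb. The medians of the 5 large arms lie between 6530 and 6849 bp, and chromosome 4 and 2LHet have no domain over 10 kb.

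Scores of the domains lay in a narrower band than those of regions of 2 to 5 kb. The median score was 2.55 with a middle 50% from 2.35 to 2.74, against 2.04 and 1.22 to 2.46 for the 3084 regions of 2 to 5 kb. The full range was 1.01 to 3.36 for domains and 0.22 to 5.24 for regions of 2 to 5 kb, so the highest score of the list was not that of a domain. Only 63 domains scored below the median of the whole list, 2.04. Beyond the width limit the score changed little with width: the median was 2.49 for domains of 5 to 6 kb, 2.63 for those of 9 to 10 kb and 2.63 for those over 15 kb. The highest-scoring domains were not the widest ones. They lay on 2R from 4785712 to 4790956 (5245 bp, score 3.36), on 2L from 8040164 to 8045540 (5377 bp, score 3.30) and on 2R from 17054118 to 17060302 (6185 bp, score 3.24). All 3 were single regions in both replicate lists. The lowest-scoring domains were on 3L from 15499882 to 15506430 (6549 bp, score 1.01), on 3R from 8264438 to 8271380 (6943 bp, score 1.04) and on 2L from 11267492 to 11273444 (5953 bp, score 1.11). The domain on 3L was split in replicate 1, the domain on 3R was split in both lists, and the domain on 2L was whole in both.

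Of the 742 domains, 733 lay on the 5 large arms, 8 on chromosome 4 and 1 on a heterochromatic scaffold. Arm 3R had 183 domains, X 150, 2R 142, 3L 132 and 2L 126. Per Mb this was 6.71 on 2R, 6.69 on X, 6.56 on 3R, 5.48 on 2L and 5.38 on 3L. In the replicate lists the density was 5.98 ± 0.234 per Mb on 2R (SD, n = 2), 5.98 ± 0.189 on X and 5.77 ± 0.0507 on 3R, and 5.06 ± 0.0307 on 2L and 4.79 ± 0.144 on 3L. The densities of 2R and X did not differ beyond this spread. That of 3R, 5.81 and 5.73 in replicates 1 and 2, was a little lower in each replicate. It was 5.82 and 6.15 on 2R and 5.84 and 6.11 on X. Each replicate had a higher density on these 3 arms than on 2L and 3L. The density also depends on how many regions an arm has: 2R had 905 regions on 21.1 Mb, and 2L had 760 on 23.0 Mb. Of the regions of 2R 15.7% were domains, against 16.6% on 2L, 15.4% on 3L and 16.7% over the whole list. Domains covered between 3.98% (3L) and 5.12% (3R) of an arm.

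On X a somewhat larger share of the regions were domains than on the autosomes. The share was 19.2% of 783 regions on X (exact Clopper-Pearson 95% interval 16.5 to 22.1) and 16.5% of 3531 regions on the 4 autosomal large arms (15.3 to 17.8). These intervals and those below cover counting error only, and neighbouring regions are not independent. In replicates 1 and 2 the share on X was 16.9% and 18.3%, against 15.0% and 15.6% on the autosomal arms. Of the autosomes, 3R was close to X, with 18.2% in the combined list and 16.4% and 16.7% in the replicates. The median width of the domains themselves was 6530 bp on X, below the 6644 to 6849 bp of the other large arms. Domains over 10 kb were 16.0% of the domains of X, 18.3% of those of 2L, 16.4% of those of 3R, 12.9% of those of 3L and 12.7% of those of 2R.

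The small, largely heterochromatic chromosome 4 had 8 domains among 56 regions (14.3%, interval 6.38 to 26.2), with 5 regions of that width in replicate 1 and 7 in replicate 2. The widest ran from 1045430 to 1054976 (9547 bp) and was a single region in both replicate lists, of 9263 and 9508 bp. The other 7 were 5007 to 7687 bp wide. All 8 were whole in replicate 2, and 7 were whole in replicate 1. The exception, from 1142044 to 1148542, was split in replicate 1, with a widest piece of 4379 bp. The median score of the 8 domains was 2.16, against 2.52 to 2.59 on the large arms. The median score of regions of 2 to 5 kb was also lower on chromosome 4, at 1.85 against 1.96 to 2.12 on the large arms.

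Outside the arms broad domains were nearly absent from the lists. The only one was on 2LHet, a scaffold of heterochromatin of chromosome 2, from 30438 to 36664. It was 6227 bp wide, with a score of 2.43, and was a single region in both replicate lists, of 6123 and 6176 bp. The other 5 heterochromatic scaffolds had 0 domains among 45 regions, which allows a share of up to 6.67% by a limit of 3 counts (exact upper bound 7.87%). The unplaced scaffold U had 0 among 34 regions, which allows up to 8.82% by the same limit (exact upper bound 10.3%). How much of these scaffolds could receive mapped reads is unknown.

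Along the large arms the share of domains among the regions was lowest next to the centromere on 2L, 2R and 3L, and not on X and 3R. Each arm was divided into 10 equal parts from the telomere to the centromere. Summed over the 5 arms, the part at the centromere had 32 domains among 297 regions (10.8%, interval 7.49 to 14.9), with 9.66% and 9.72% in replicates 1 and 2. The other 9 parts had between 14.3% and 21.4%. The part at the centromere had 1 domain among 58 regions on 2R, 4 among 66 on 2L, 2 among 28 on 3L and 6 among 43 on X. On X the share there, 14.0%, was close to the 13.8% of each of the 2 parts nearest to the telomere. On 3R it was 19 among 102 (18.6%), and in the replicate lists 16 among 100 and 16 among 102. Each replicate list also had 1 region over 5 kb in this part of 2R. At the other end, the telomeric part of 2R had 28 domains among 103 regions (27.2%), with 23 among 105 and 24 among 103 in the replicates.

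**Figure D2:**
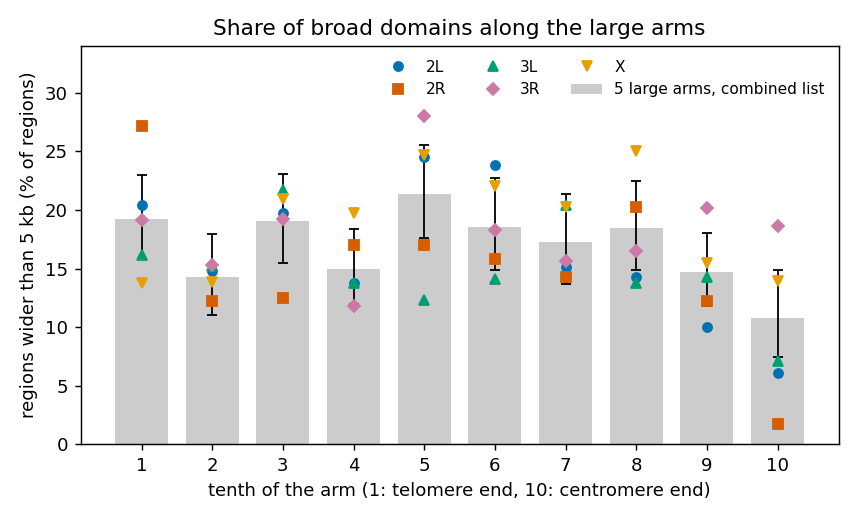
Share of regions wider than 5 kb (vertical axis, % of the regions of that part) in 10 equal parts of the large arms, from the telomere (1) to the centromere (10). Grey bars pool the 5 arms in the combined list with exact 95% intervals for counting error, and symbols are single arms; the pooled share is lowest in part 10, at 10.8%, where 3R stands at 18.6%.

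Broad domains had closer neighbours than regions of 2 to 5 kb. The gap is the number of bases between the facing ends of 2 regions. The median gap from a domain to its nearest region was 2416 bp, against 3638 bp for a region of 2 to 5 kb. In the replicate lists it was 2444 ± 69.3 bp and 3575 ± 146 bp (SD, n = 2), so the difference exceeded the spread between the replicates. Of the domains, 328 (44.2%) had a region within 2 kb, against 34.4% of all regions of the list and 34.5% of those of 2 to 5 kb. At the other extreme, 43 domains (5.80%) and 13.0% of the regions of 2 to 5 kb had no region within 20 kb. For the 112 domains over 10 kb the median gap was 2261 bp, and for those of 5 to 10 kb it was 2485 bp.

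The shorter gap was seen on each of the large arms and not on chromosome 4. The median gap was 1984 bp for the domains of 2R against 3290 bp for its regions of 2 to 5 kb, 2275 against 3709 bp on 2L, 2371 against 3773 bp on 3R and 2485 against 4233 bp on 3L. The difference was smallest on X, with 2638 against 3062 bp. On chromosome 4 the order was opposite, with a median gap of 15965 bp for the 8 domains and 4635 bp for the 39 regions of 2 to 5 kb.

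**Figure D3:**
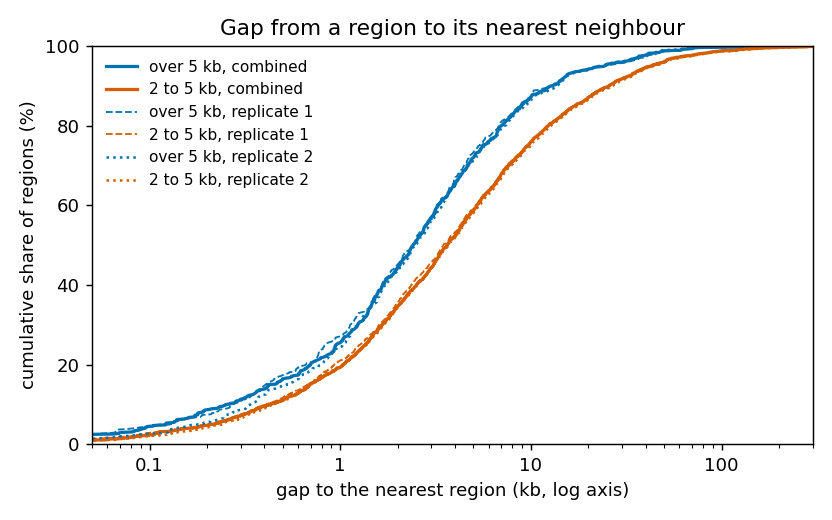
Cumulative share of regions (vertical axis, %) by the gap to the nearest region (horizontal axis, kb, log scale) for domains over 5 kb (blue) and regions of 2 to 5 kb (orange) in the combined list and in each replicate list. The blue curves lie to the left of the orange ones in each list, with medians of 2416 and 3638 bp in the combined list.

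Domains also stood beside other domains more often than regions of 2 to 5 kb did. Of the 1482 neighbours of domains, counted on both sides, 344 (23.2%) were domains themselves. Among the neighbours of all regions the share was 16.7%, and among those of regions of 2 to 5 kb it was 15.6%. In the replicate lists the shares were 21.9% ± 1.25 for domains and 14.5% ± 0.463 for regions of 2 to 5 kb (SD, n = 2). The median gap to the nearest other domain was 19859 bp for domains and 40597 bp for regions of 2 to 5 kb. A further domain lay within 10 kb of 272 domains (36.7%), and 24.2% of all regions had a domain that near. None lay within 100 kb on the same sequence for 150 domains (20.2%). The share was 26.3% for all regions and 27.4% for those of 2 to 5 kb.

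Runs of neighbouring domains with gaps of at most 2 kb held 115 domains, in 49 pairs, 4 runs of 3 and 1 run of 5. Runs were counted for domains only, so whether 115 is many for regions of this list cannot be told. The run of 5 was on 2R from 4777232 to 4817510 and put 35785 of its 40279 bp (88.8%) into domains. Its members were 7789, 5245, 5097, 6647 and 11007 bp wide with scores of 2.58, 3.36, 2.58, 2.75 and 2.86, and the second of them is the highest-scoring domain of all. The replicates did not hold all 5 alike: the first 2 were whole in both lists, the third and the fourth were cut short in replicate 1, the fourth also in replicate 2, and the last was split in both. The widest run of 3 was on 3R from 11169520 to 11199512, with domains of 9849, 11051 and 7963 bp and gaps of 129 and 1001 bp. Another run of 3, on 2L from 2744062 to 2771874, had domains of 12659, 5735 and 7969 bp, all whole in both replicate lists, with scores of 1.91, 2.63 and 3.11. The most isolated domains were on 2R at 15713334 (5615 bp), with 153527 bp to the nearest region, the domain of 2LHet (130549 bp), 2R at 15998242 (127305 bp), 2L at 5798410 (72245 bp) and 3R at 6435668 (71351 bp). The 2 isolated domains of 2R are neighbours of each other across a stretch of 279293 bp.

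The replicate lists were compared to find whether each library held a domain as a single region. A domain was called whole when exactly 1 region of the replicate list overlapped it and covered at least 90% of it, split when 2 or more regions overlapped it, and partial when 1 region covered less. Every one of the 742 domains overlapped a region in both replicate lists. Replicate 1 held 597 of them whole (80.5%), 114 split and 31 partial, and replicate 2 held 638 whole (86.0%), 75 split and 29 partial. Both lists held 571 domains whole (77.0%, interval 73.8 to 79.9), against 93.3% (92.3 to 94.1) of the regions of 2 to 5 kb. Of all 4451 regions of the combined list, both held 3560 whole (79.98%, 78.8 to 81.1), and this interval overlaps that of the domains. The share was 87.1% when only the 4088 regions found in both lists were counted, which leaves out no domain. Domains over 10 kb were less often whole in both lists than those of 5 to 10 kb. The shares were 60.7% (interval 51.0 to 69.8) and 79.8% (76.5 to 82.9).

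Splitting was almost confined to broad domains and was most frequent in the broadest. At least 1 replicate list split 128 domains (17.3%, interval 14.6 to 20.2; 3.01% over all regions) and 6 of the 3084 regions of 2 to 5 kb (0.195%). The share was 13.7% for domains of 5 to 10 kb and 37.5% (42 of 112, interval 28.5 to 47.1) for those over 10 kb. Among domains over 10 kb replicate 1 split 40 and replicate 2 split 23. The width that defines the classes comes from the combined list, in which the pieces are joined, so these shares are a description. A wider region also has more room to be split. The median region of 2 to 5 kb was 2810 bp wide, and the narrowest region of the combined list was 1001 bp. How much of the difference between the classes, also in the share held whole, goes with this room was not tested.

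**Figure D4:**
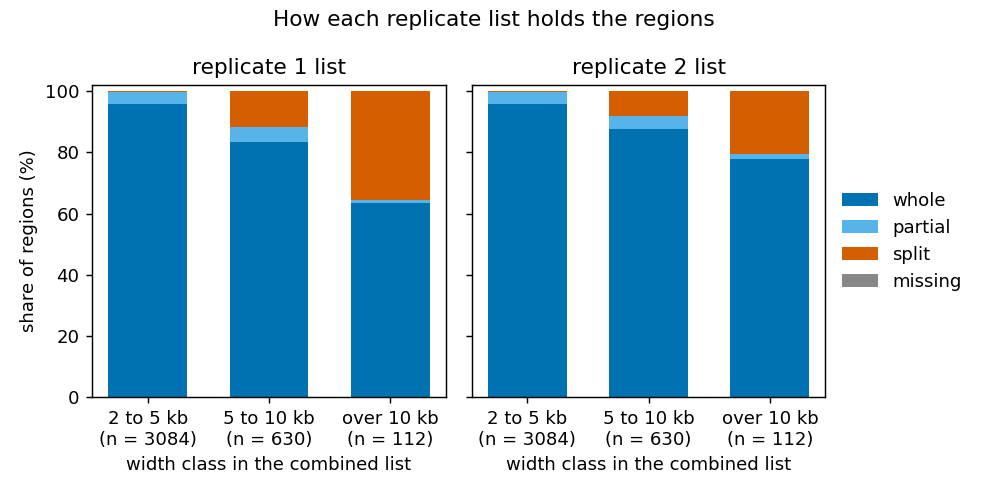
Share of regions (vertical axis, %) that each replicate list held whole, partly or split, or lacked, for 3 width classes of the combined list. The split share is 35.7% and 20.5% over 10 kb, 11.7% and 8.25% at 5 to 10 kb, and under 1% at 2 to 5 kb, in replicates 1 and 2.

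The breaks were short, and the libraries shared some of them. Only breaks inside a single region of the combined list were counted, so breaks that also part the combined list are left out. How near to each other the breaks of the 2 lists would lie by chance was not computed. The widest gap inside a split domain had a median of 207.5 bp in the first library and 170 bp in the second. It was at most 500 bp in 95 of 114 and in 63 of 75 cases, and at most 1322 and 1164 bp. Of the 128 split domains, 61 were split in both lists, 53 in replicate 1 alone and 14 in replicate 2 alone. Among the 61, the nearest pair of gaps from the 2 lists had midpoints within 100 bp of each other in 43 domains and farther apart in 18, and the median distance was 49 bp. In 1 domain the distance exceeded 1000 bp: that of 3R from 11042726 to 11057054 was cut after 3818 bp in replicate 1 and after 10536 bp in replicate 2, where the pieces touch with 0 bp between them. Most split domains fell into 2 pieces (107 in replicate 1 and 72 in replicate 2), the others into 3.

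Pieces of a split domain often differed in score. The difference between the highest- and the lowest-scoring piece had a median of 0.49 in replicate 1 and 0.46 in replicate 2. It was largest in both lists for the domain of 2R from 4806504 to 4817510, the last of the run of 5. There replicate 1 had a piece of 1772 bp with a score of 0.37 beside a piece of 8869 bp with 3.21, and replicate 2 had pieces of 1881 and 8935 bp with 0.38 and 3.00. The piece of low score was on the same side in both libraries. The domain of 2L at 4845416 had the same form, with pieces of 6834 and 1564 bp scoring 3.00 and 0.38 in replicate 1 and pieces of 6797 and 1410 bp scoring 2.70 and 0.28 in replicate 2. The middle piece was the highest-scoring one in the domain of X from 8970954 to 8982234, with 0.48, 2.89 and 2.18 in order in replicate 1 and 0.58, 2.58 and 1.92 in replicate 2.

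The widest domains were held in different ways. The domain of 3R from 7033894 to 7065124 (31231 bp) had pieces of 4295, 12245 and 14219 bp in replicate 1, scoring 2.87, 3.07 and 2.46, and pieces of 4329, 12500 and 14172 bp in replicate 2, scoring 2.63, 2.81 and 2.30. A further domain of 6155 bp followed after 415 bp, so that 98.9% of a longer stretch lay in domains. The 25623 bp domain of 2R at 10038144 was whole in both lists. The 25215 bp domain of 2L at 4441476 had pieces of 8163 and 16229 bp in replicate 1 and of 9058 and 16113 bp in replicate 2. The 23499 bp domain of X at 509000 was whole in replicate 1 and had pieces of 16998 and 5105 bp in replicate 2. The 22645 bp domain of 2L at 10418300 had a middle piece of 12022 and 12450 bp, scoring 2.87 and 2.61, between pieces of lower score on both sides in both libraries.

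The next 5 domains by width were 17015 to 19191 bp wide. The domains of 3R at 19576614 and of 2L at 2872120 were whole in replicate 2 and split in replicate 1, the latter into 2 nearly equal pieces of 8728 and 8330 bp with scores of 2.92 and 1.64. The domains of 2L at 4964644 and 11986182 were whole in both lists, with widths of 18844 and 18854 bp and of 17000 and 16874 bp. The domain of X at 1757782 was 18679 bp in the combined list and 18277 bp in replicate 2, but in replicate 1 a single region of 24790 bp joined it to the domain on its left, across a gap of 41 bp. The widest domain of 3L, at 9710418, had 14589 bp and was split in replicate 1 and whole in replicate 2. With 3 pieces in replicate 1, the domains of 2R at 19729330 (16701 bp) and of 3L at 1793090 (11585 bp) were among the most divided, and replicate 2 divided each into 2.

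The width limit was met in both libraries by most domains. Since the combined list that chose them draws on both libraries, this is partly built into the choice and is given as a description. The full width of a replicate region that overlapped the domain was counted, also where it reached beyond the domain. A region over 5 kb overlapped the domain in both replicate lists for 612 of the 742 (82.5%). Such a region was in replicate 1 alone for 23 domains, in replicate 2 alone for 49 and in neither list for 58. The share with such a region in both lists was 70.2% for domains of 5 to 6 kb and 98.2% (110 of 112) for those over 10 kb. The exceptions over 10 kb were the domain of 3L at 1793090 just described and the 12443 bp domain of 2R at 13450356, which fell into 3 pieces in replicate 1, the widest 4362 bp, and was whole at 12379 bp in replicate 2. Of the 130 domains without such a region in both lists, 65 were split in at least 1 list and the others were held as narrower single regions.

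**Figure D5:**
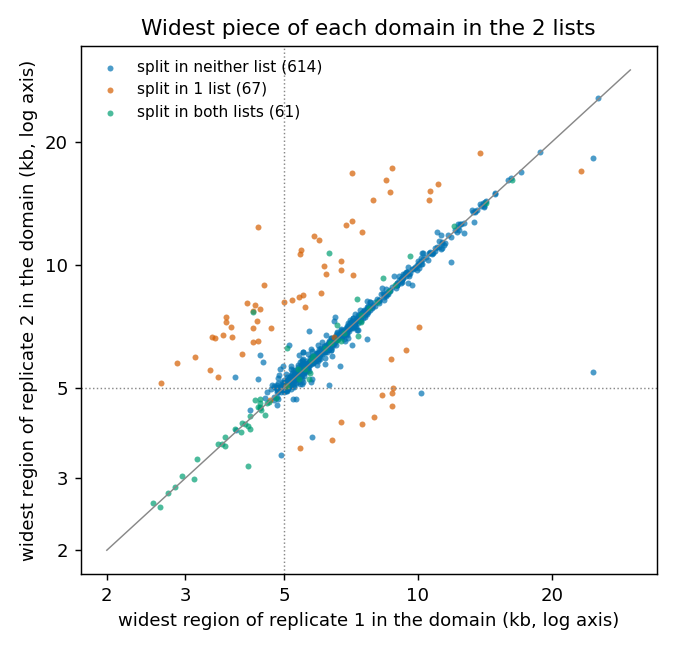
Full width of the widest region of replicate 1 (horizontal axis) and of replicate 2 (vertical axis) that overlaps each of the 742 domains, in kb on log scales. The dotted lines mark 5 kb and the grey line equal widths. The 614 domains split in neither list lie mostly near the line, and domains split in replicate 1 alone (53) outnumber those split in replicate 2 alone (14).

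The ends of the domains lay farther from those of the replicate regions than the ends of narrower regions did. In domains held whole the end of the replicate region lay inside the end of the combined region by a median of 49 bp in replicate 1 and 31 bp in replicate 2, against 19 and 22 bp for regions of 2 to 5 kb. Ends within 100 bp of each other made up 72.6% and 81.0% of the ends of domains, and 91.2% and 92.7% of those of regions of 2 to 5 kb. Since whole means at least 90% covered, this choice bounds the distance by the width of the region. Over all regions with 1 overlapping replicate region, whatever share it covered, the median inset was 51 and 32.5 bp for domains. It was 20 and 23 bp for regions of 2 to 5 kb. All these medians count an end as negative where the replicate region reached beyond the combined one. Over the same regions that was so for 9.00% and 13.3% of the ends of domains, and 16.3% and 10.2% of those of regions of 2 to 5 kb. The shares of ends within 100 bp were then 70.1% and 79.1% against 89.0% and 90.4%. The share of a domain that was covered differed most between the libraries on X at 2050554 (93.8% and 61.3% in replicates 1 and 2), on 2R at 19818776 (96.5% and 67.2%), on 3R at 13625850 (73.1% and 99.5%), on 2R at 19774438 (68.5% and 93.9%) and on 3L at 20776090 (76.0% and 99.6%). These 5 domains were 5095 to 6167 bp wide. Over all domains the median covered share was 97.8% in replicate 1 and 98.6% in replicate 2.

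Domains chosen in 1 library were also read in the other, which the choice did not use. Of the 653 regions over 5 kb of replicate 1, 627 (96.0%, interval 94.2 to 97.4) overlapped a region of that width in replicate 2, which held 619 of them whole and 22 split. Of the 672 of replicate 2, 620 (92.3%, 89.98 to 94.2) overlapped one of that width in replicate 1, which held 600 whole and 57 split. Of the regions of 2 to 5 kb, 3.02% of those of replicate 1 and 1.38% of those of replicate 2 overlapped a region over 5 kb in the other list. The median width went from 6416 bp in replicate 1 to 6532 bp for the widest region of replicate 2 at the same place, and from 6523 bp in replicate 2 to 6307.5 bp in replicate 1. In both directions the regions of replicate 2 were therefore the wider ones.

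The score of a domain was higher in replicate 1 than in replicate 2 for 724 of 742 domains (97.6%, interval 96.2 to 98.6), with a median difference of 0.23. Over all regions found in both lists the share was 90.3%, and for regions of 2 to 5 kb it was 89.7% with a median difference of 0.18. Between regions of like score the difference was smaller: among regions with scores between 2.35 and 2.74 in the combined list, the share was 97.3% for 370 domains and 95.01% for 682 regions of 2 to 5 kb. This range, the middle 50% of the scores of the domains, was chosen after the values were seen. Of the 18 domains without a higher score in replicate 1, 5 were among the 8 of chromosome 4 and 7 were on X, and 1 was the domain of 2LHet. On chromosome 4 the median difference was -0.05 for the domains and 0.01 for the 39 regions of 2 to 5 kb, of which 21 scored higher in replicate 1. On the large arms 90.8% of the regions of 2 to 5 kb did, so the smaller difference on chromosome 4 was not limited to its domains. The score has no stated scale, so the level of the difference cannot be read, and with 1 pair of libraries it describes only these 2 libraries.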

How the data were processed

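The analysis started from the region lists that the authors deposited in GFF3 format, 1 for each ChIP library and 1 combined list, which per the file headers use FlyBase release 5. Bowtie 0.12.7 appears in the submitters' processing notes. Not given in the sources used here are the region caller, its threshold, the use of the input and the way of combining replicates. Scores in the deposited lists have no stated scale or log base. Every first and last base of the combined list is an even number, so its widths move in steps of 2 bp. The authors' label in the combined list calls 20 regions depletion, all with a score below 0; none is a member.

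Widths, gaps and overlaps of at least 1 bp were computed in Python 3.11.15 (pandas 2.3.3, numpy 2.4.6, scipy 1.17.1; plots with matplotlib 3.10.9). Where a replicate split a domain, its score there is the mean of the pieces weighted by overlap. No test was run, since the rule used both ChIP libraries; intervals are exact Clopper-Pearson intervals at 95%. The code was tested on simulated lists. Domains named are the 10 widest, the widest of each sequence, the 3 highest and 3 lowest in score, the 5 with most pieces, the 5 with the largest difference in covered share, the 5 farthest from another region, the 3 largest runs and the 5 regions on each side of the limit. Others (chromosome 4, the 2 exceptions over 10 kb, pieces of unequal score, the break at different places) were picked once their values had been seen. The members and lists were chosen with earlier results of these data known. The alternatives were other width limits, other definitions of whole, joined neighbours, fewer sequences, a score minimum, each replicate list alone and, added later, the regions called depletion left out and the ends of regions compared whatever their covered share.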

Additional observations from a re-analysis of the deposited data

How the results depend on the processing

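The number of domains, 742, was 1245 with a limit of 4 kb and 494 with a limit of 6 kb, and it stayed within 1.5 times under the 6 other settings; with each replicate list alone it was 653 to 672. The share of domains held whole in both lists, 77.0%, was 80.9% when 80% coverage was enough, 67.0% when 95% was required and 80.5% after neighbours within 500 bp were joined. For regions of 2 to 5 kb, 93.3%, it was 98.0% and 76.7% at those coverages. The median gap of domains, 2416 bp, was 3207 bp after joining, 2519 and 2313 bp at limits of 4 and 6 kb, and 2395 to 2493 bp in the replicate lists. That of regions of 2 to 5 kb was 4425 bp after joining and 3472 to 3678 bp in the replicates, so domains had the shorter gap in each setting where both were computed. The share of regions on X that were domains, 19.2%, was 33.0% and 12.3% at limits of 4 and 6 kb, 24.2% after joining and 16.9% to 18.3% in the replicates. On the autosomal large arms it was 27.5%, 11.1%, 19.7% and 15.0% to 15.6%, below X each time. The share of neighbours of a domain that were domains was 21.0% to 22.8% in the replicates, and for regions of 2 to 5 kb it was 14.1% to 14.8%, and 19.6% after joining against 23.9% for domains. Without the regions called depletion, the number, the shares held whole, the gaps and the neighbours stayed within the limit set for each. On the 6 arms alone the number, the shares held whole and the share of higher scores did so too. So did the shares held whole with overlaps of at least 100 bp. The limit was 1.5 times for the number and the exact 95% interval for the shares held whole and of higher scores. For the gaps and the neighbours it was the SD of the replicates. Apart from the settings named, the cause of these shifts was not tested. No paired analysis was possible because no result comes from a test and only the ChIP arm, not the input arm with the same numbers, is analysed here. Unknown depth limits the statements on breaks and edges.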

Other observations

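The number of broad domains varied along the large arms, and the places named here were picked with their values in view. The median of 236 windows of 500 kb on the large arms held 3 domains, and 20 windows held none. Whether these counts follow the number of all regions in a window was not tested. The window of 2R from 19500001 to 20000000 held 16 domains among 36 regions, with 14 in each replicate list, and 2 of the 5 domains whose covered share differed most between the libraries lie in it. The window of 2L from 10000001 to 10500000 held 14 among 39, with 11 and 13 in replicates 1 and 2. The next, on X from 15500001 to 16000000, held 11 among 29, with 11 and 12. On the large arms the longest stretches without a domain lay next to the centromere, on 3L after its last domain (22867295 to 24543557, with 14 regions) and on 2R before its first (1 to 1644257, with 40 regions). The longest ones between 2 domains were on 2L, from 21223119 to 22427017 (1203.9 kb), from 8519285 to 9696107 (1177 kb) and from 17485973 to 18603477 (1118 kb). These 3 held 29, 32 and 19 narrower regions.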
